A study of Mus musculus with 8 samples.

Results

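Myogenic cells labelled through Pax7 and through Twist2 (Tw2) were each compared before and after culture for differentiation, and the quantity described here is how far the change in one lineage departed from the change in the other. For every gene the response was log2(CPM + 1) in the 48 culture minus log2(CPM + 1) in growth medium, where CPM is the read count scaled to the size of its library. The Pax7 response was subtracted from the Tw2 response, giving the difference of responses. It was computed for all 5457 genes of the deposited table. The difference was tested in the 5452 genes whose libraries could be told apart, and 1021 genes were called at an adjusted p under 0.05.

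Adult C57BL/6 mice gave hind limb skeletal muscle. Their genotype was Pax7-CreERT2/+;R26-tdTO+ or Tw2-CreERT2/+;R26-tdTO+, and tamoxifen in such mice lets a Cre recombinase switch on the red protein tdTomato. All mice had 3 tamoxifen treatments and muscle was taken 10 days later. Red cells were sorted and plated on Matrigel in Ham's F10 with 20% fetal bovine serum (GM), and differentiation used high-glucose DMEM with 2% horse serum and bFGF. The groups were Tw2_GM, Tw2_48, Pax7_GM and Pax7_48, each with 2 libraries. The labels describe media for Twist2 cells alone, give hours for the 48 of the Tw2 titles and no unit for that of the Pax7 titles, and do not say whether libraries came from separate mice. The p-values therefore measure the spread between these libraries, which may be technical, and a lineage cannot be told apart from anything else that differed between the mice or cultures. The control cultures of both lineages carried the reporter, Cre and tamoxifen too.

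When myoblasts lose mitogens they leave the cell cycle, switch on the transcription factor myogenin and then the proteins of the contractile apparatus, and fuse into myotubes. Pax7 marks the satellite cell, the resident stem cell of muscle. Twist2 is a transcription factor of mesenchymal cells, and Twist2-labelled interstitial cells have been described as a source of particular fast fibres in adult muscle.

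The listed genes were at 10 CPM or more in at least 4 libraries, and each lay at least 2-fold from Tw2_GM in 1 or more of the other groups. The table thus picked genes on the Tw2 response (3503 at least 2-fold), the start difference (2348) and Pax7_48 against Tw2_GM (4640). The last of these mixes the Pax7 response with the start difference, and the Tw2 response with the end difference. The Pax7 response and the end difference were therefore selected on in part, though not by themselves. Genes outside the table were not analysed here. Implied library sizes ran from 5183380 to 13733379 reads. The 2 Pax7_GM libraries differed most, with an SD of their log2 ratio of 0.50 against 0.17 to 0.20 in the other groups. Libraries are given below with the deeper of each pair first. Pax7 itself was at 113 and 109 CPM in Tw2_GM, 117 and 112 in Pax7_GM, 13 and 12.6 in Tw2_48, and 9.58 and 9.95 in Pax7_48. The sorting gene of one lineage was therefore present in both at the start, at -0.05 (not called), and fell in both. Its difference of 0.40 ± 0.17 (SE, adjusted p = 0.13) was not called with CPM as deposited. It was called with size factors (0.66, adjusted p = 0.042) and quantile normalization (0.63, adjusted p = 0.036), and under both scalings Pax7 was lower in Tw2_GM. Without the shallower Pax7_GM library the difference was 0.44. Adjusted p-values are from limma.

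The 2 lineages moved most listed genes the same way, and where they differed the Tw2 cells usually moved further. The Tw2 response was called in 84.1% of tested genes (35.3% up, 48.9% down) and the Pax7 response in 79.2% (38.8% up, 40.5% down). A difference of responses was called in 18.7%, which was 530 genes higher in Tw2 (9.72%) and 491 lower (9.01%). Of these 1021 genes, 772 (75.6%) changed in the same direction in both lineages with the larger change in Tw2. In that class 422 genes rose more and 350 fell more. A further 110 genes changed in Tw2 only, 60 in Pax7 only, 56 changed less in Tw2 than in Pax7, and 23 went in opposite directions. Membership of the "only" classes rests on a threshold in each lineage. The test is that of the difference. With CPM as deposited, the counts of called members in the gene lists below stand against 9.72% of all tested genes called higher and 9.01% lower.

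Among the called genes the Tw2 response was the larger in 87.7%, against 71.3% of all tested genes. With quantile normalization the shares were 73.8% and 62.2%. Without the shallower Pax7_GM library the share of all tested genes was 67.8%. None is given there for called genes, since the calls of that fit are not comparable, as set out below. Listing favoured large Tw2 responses. Among called genes with a 2-fold Pax7 response the Tw2 response was the larger in 88.4% (649 of 734), against 70.5% of all tested genes with such a response. Among called genes without a 2-fold Tw2 response it was the larger in 25.2% (29 of 115), against 51.5% of all tested genes without one. Both sets come from the same listed genes, so neither removes the effect of listing. The median difference over all tested genes was -0.22, and became -0.00 with size factors and -0.06 with quantile normalization. Size factors left 656 genes higher and 223 lower (74.6% higher, against 51.9% with CPM as deposited), and removing the trend with GC content and length gave 606 and 1155 (34.4% higher). The median difference was -0.25 without the shallower Pax7_GM library and -0.15 without the deeper one. Such a fit leaves 1 library, and so no spread, in the group where the 2 libraries differed most. Its count of calls is therefore not comparable and is listed only at the end. Of the original calls, 352 of the 530 and 186 of the 491 were also called, in the same direction, under both scalings and with the trend removed.

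**Figure D1:**
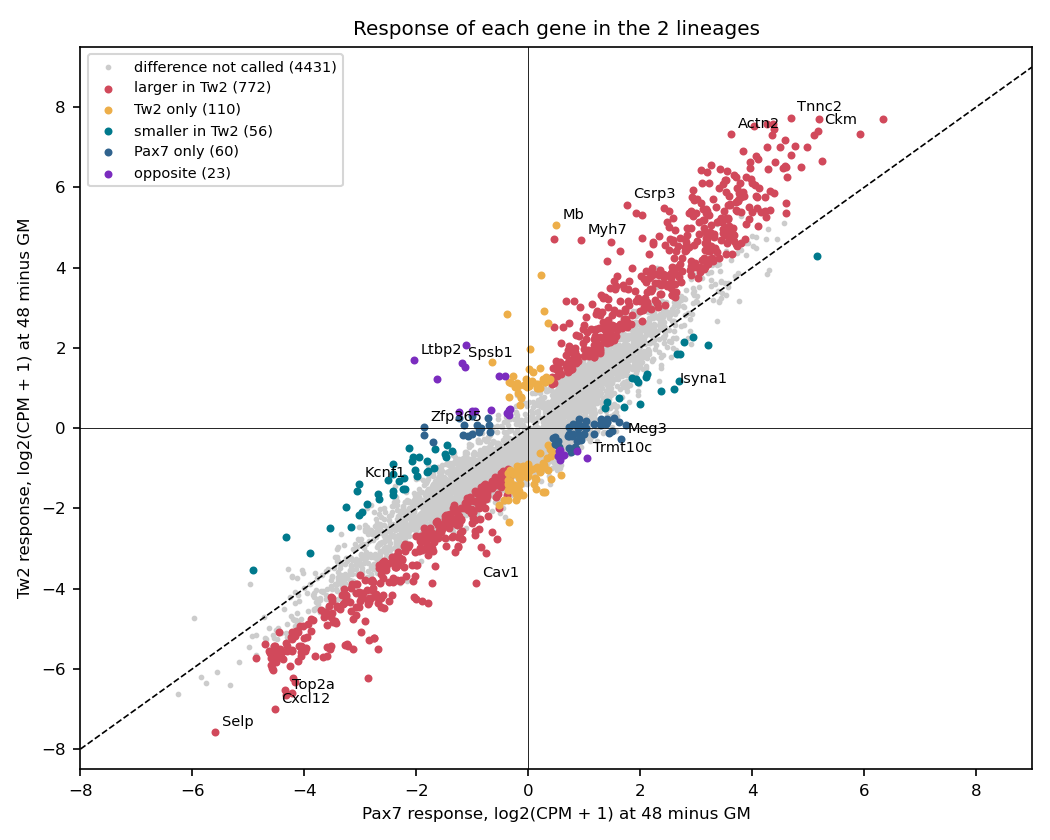
Tw2 response against Pax7 response for the 5452 tested genes, both as log2(CPM + 1) at 48 minus GM. Each point is a gene, coloured where its difference of responses was called, and the dashed line marks equal responses. Most coloured points (772) lie beyond the line on the side of a larger Tw2 change, and the 23 opposite genes lie at the upper left and lower right of the origin.

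The difference of responses equals the lineage difference at the end (Tw2_48 minus Pax7_48) less that at the start (Tw2_GM minus Pax7_GM), and all 3 share libraries. A start difference was called in 74.7% of tested genes (48.7% higher in Tw2, 26% lower) and an end difference in 65.4% (43.3% higher, 22.1% lower). Among the 1021 genes, 379 (37.1%) differed at the start alone and 182 (17.8%) at the end alone. Another 227 differed at both in the same direction with a narrower gap at the end, 54 had a wider gap at the end, and 179 crossed over, so that the lineage that was lower at the start was higher at the end. Each gene has the same SE at start and end, so the spread of the Pax7_GM libraries also widens the SE of the end difference, which does not use them. With library weights set per group, 201 genes were start only, 224 end only and 449 narrower. A start-only class therefore does not mean equal levels at the end. The start difference was the larger in 712 of the 1021 (69.7%). That is close to the 69.3% of all tested genes, so with CPM as deposited the share is not a result about the called genes. The called genes lay further above all genes with size factors (77.4% and 71.3%), quantile normalization (80.8% and 72.5%) and library weights (76.8% and 69.3%). Over all tested genes the share was 61.3% without the deeper Pax7_GM library and 74.7% without the shallower one.

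Scaling also decides on which side of 0 a level difference falls. Over all tested genes the median start difference was 0.34 and the median end difference 0.27 with CPM as deposited, against -0.50 and -0.36 with size factors. Counts of the start-only class went to 280, of the end-only class to 97 and of the crossing class to 94, while the narrower class rose to 341. Start and end differences below are from CPM as deposited unless another setting is named. Under size factors a gene described as differing at one culture alone was often called at the other too: of the 48 start-only genes chosen for naming, 14 stayed start only and 24 became narrower, and of 29 end-only genes 2 stayed end only, 12 became wider and 14 crossed.

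**Figure D2:**
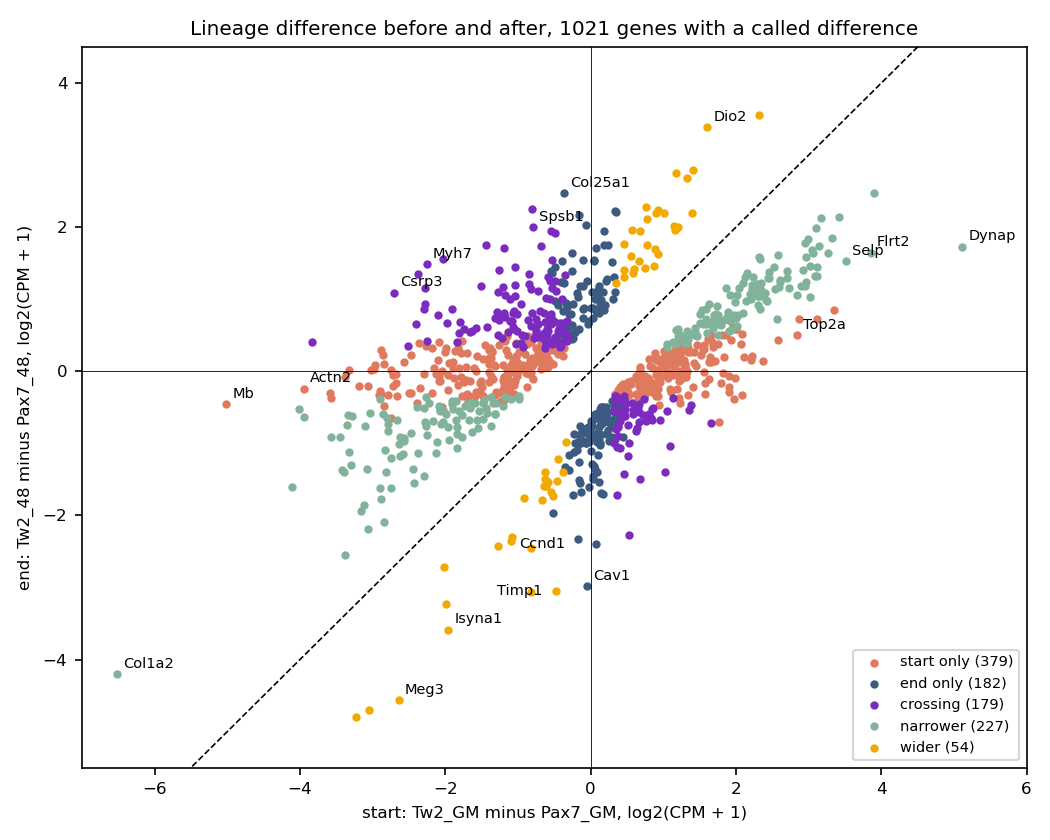
End against start lineage difference (Tw2 minus Pax7, log2(CPM + 1)) for the 1021 genes with a called difference of responses. Points are genes, coloured by which lineage differences were called, and the dashed line marks equal start and end. The start-only genes (379) lie along the horizontal axis, the end-only genes (182) along the vertical one, and Mb lies far to the left with an end difference near 0.

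Genes of the sarcomere made up the clearest block with a larger Tw2 response. Among 17 tested thick filament genes, which encode myosins and their partners, 15 were called higher and none lower. Of 38 genes of the thin filament and Z-disc, 30 were called higher and 1 lower. These compare with 9.72% of all tested genes called higher and 9.01% lower. All 17 thick filament genes rose in both lineages, by a median of 5.85 in Tw2 and 3.57 in Pax7. The median difference was 2.52 there and 1.64 in the thin filament list. Most of it lay at the start: 16 of the 17 thick filament genes were lower in Tw2_GM than in Pax7_GM, with a median of -2.49, whereas at 48 the median was -0.16, with 6 called lower and 3 higher. Under size factors all 17 were lower at the start (median -3.30) and 14 at the end (median -0.82), and with the GC and length trend removed 16 were lower at the start (median -1.86) and 4 at the end, with 9 higher (median 0.38). Of all 5452 tested genes, 2940 were lower at the start and 2631 at the end under size factors (medians -0.50 and -0.36). With the trend removed 806 were lower at the start and 715 at the end, with 2552 higher there (median 0.31). In bulk RNA, fewer cells of a type and less RNA per cell cannot be told apart.

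Mb, on chromosome 15, encodes the oxygen carrier myoglobin and had the largest positive difference of the tested genes. It was counted with the energy genes and is set here because it too began far lower in Tw2. Unlike the thick filament genes, it had no called rise in Pax7. It was at 6.08 and 4.25 CPM in Tw2_GM, 196 and 211 in Tw2_48, 233 and 166 in Pax7_GM, and 301 and 256 in Pax7_48. The Pax7 cells thus held in growth medium a level that Tw2 cells reached only after the change, and the 3 other groups lay between 166 and 301 CPM. The difference was 4.57 ± 0.30 (adjusted p = 0.00014), made of a Tw2 rise of 5.06 and a Pax7 change of 0.50 that was not called. Its end difference of -0.45 was not called, but was called at -1.11 with size factors and -0.58 with quantile normalization.

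Actn2, which encodes the Z-disc protein alpha-actinin, also began far lower in Tw2, but rose in both lineages. It measured 11.2 and 7.88 CPM in Tw2_GM, 1721 and 1631 in Tw2_48, 179 and 141 in Pax7_GM, and 1897 and 2059 in Pax7_48. Its start difference was -3.95, its end difference -0.24 (not called), and its difference of responses 3.71 ± 0.26 (adjusted p = 0.00018). With size factors the end difference was -0.90 and was called. The perinatal myosin gene Myh8 rose from 10.8 and 8.14 to 2070 and 1891 CPM in Tw2, and from 107 and 140 to 2497 and 2610 in Pax7. The embryonic light chain gene Myl4 went from 39.0 and 31.6 to 6613 and 6745 in Tw2, and from 670 and 503 to 9139 and 10015 in Pax7. For both, Tw2 began far below Pax7 and ended near it, with an end difference of -0.37 (not called, but -1.03 and called with size factors) for Myh8 and of -0.52 (called) for Myl4. Myl1 (3.33 ± 0.18), Tcap (3.28 ± 0.25), Tnnc2 (3.05 ± 0.26) and Pdlim3 (2.72 ± 0.18) also began lower in Tw2.

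A smaller group of contractile genes crossed over. Myh7 encodes the slow myosin heavy chain. It was at 14.9 and 13.9 CPM in Tw2_GM, 409 and 382 in Tw2_48, 68.3 and 77.0 in Pax7_GM, and 151 and 131 in Pax7_48. Tw2 was the lower lineage at the start (-2.26) and the higher at the end (1.48), and the libraries overlapped in neither culture. Csrp3, a muscle LIM protein of the Z-disc, went from 1.48 and 1.33 to 117 and 109 CPM in Tw2, but only from 16 and 13.5 to 54.7 and 50.4 in Pax7 (difference 3.80 ± 0.19, adjusted p = 6.9e-05). Igfn1, a Z-disc immunoglobulin protein, had a difference of 4.24 ± 0.22. Both Myh7 and Csrp3 kept the crossing under size factors and quantile normalization, and Igfn1 became a start-only gene under each.

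The most abundant sarcomere genes had means too high to split into libraries and were not tested. In the authors' deposited table, the embryonic myosin gene Myh3 had means of 91.1 CPM in Tw2_GM, 20577 in Tw2_48, 388 in Pax7_GM and 8729 in Pax7_48, a difference of 3.31. Means there for the cardiac actin gene Actc1 give 3.07, those for the fast light chain gene Mylpf 3.18, and those for the skeletal actin gene Acta1 2.95. These 4 genes therefore lie with the tested sarcomere genes, though without an error. The deposited means of H19, an imprinted non-coding RNA, give -0.34.

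**Figure D3:**
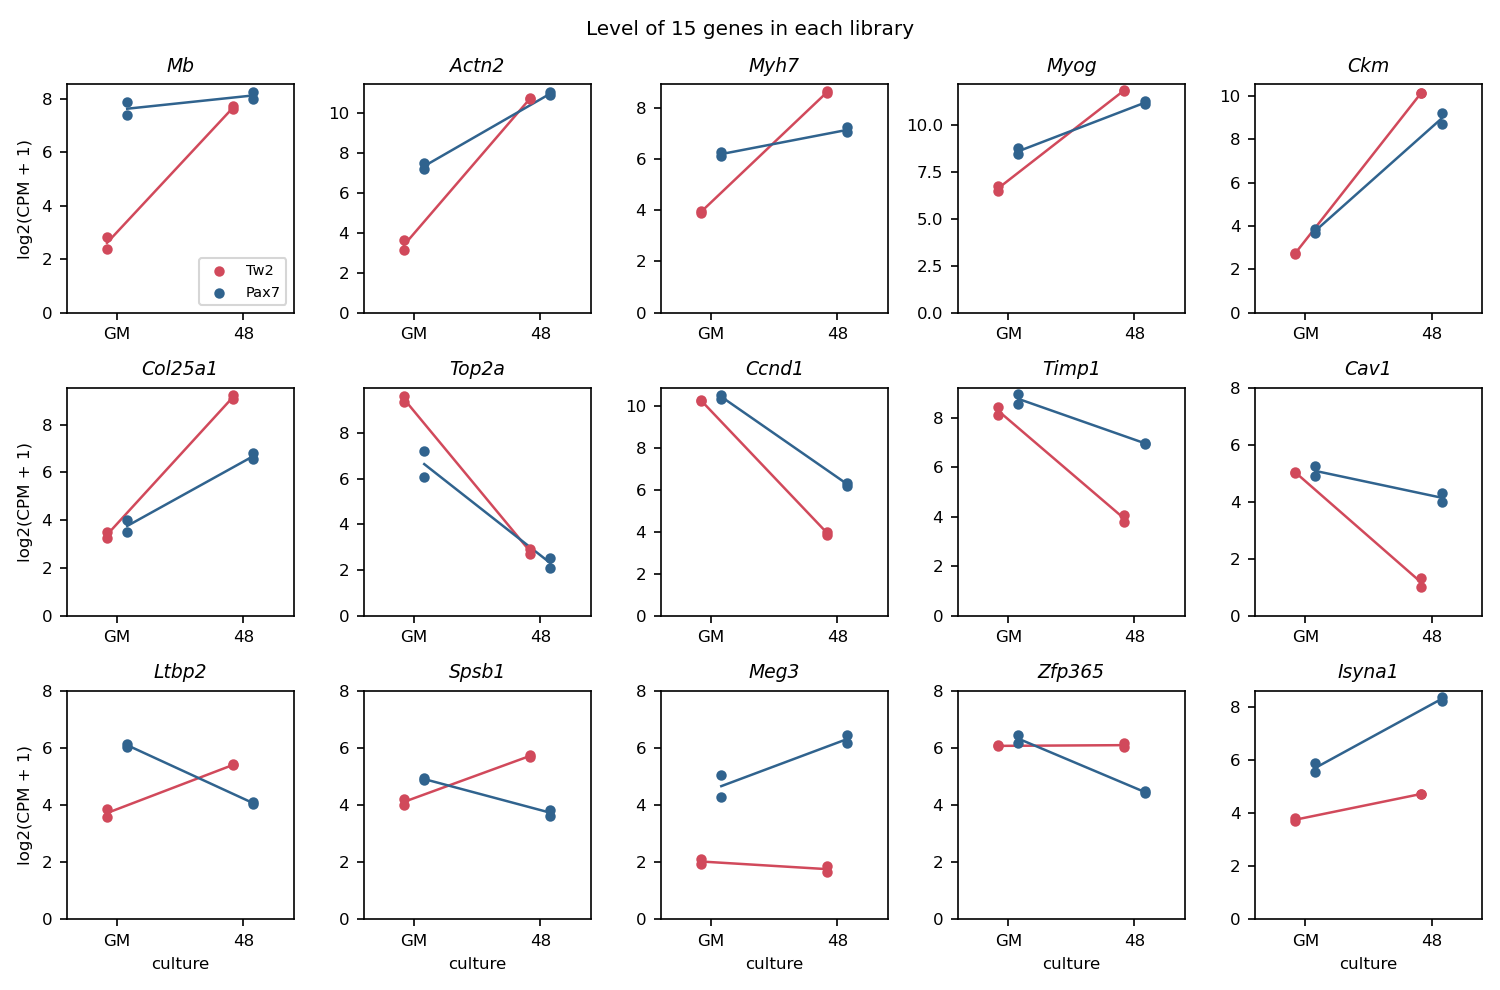
Level of 15 genes in each library as log2(CPM + 1), in GM and at 48, with the lines joining the 2-library means of Tw2 (red) and Pax7 (blue). Mb and Actn2 start low in Tw2 and end level with Pax7, Ccnd1 and Cav1 start level and end lower in Tw2, Timp1 starts somewhat lower in Tw2 and ends much lower, and Ltbp2 and Spsb1 rise in Tw2 and fall in Pax7.

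Upstream sequence is shown for 3 contractile or energy genes and 1 cell division gene, because members of their gene lists mostly moved together. Each line holds the 250 bases before the start of the gene, from RefSeq on GRCm38.p6. Ckm is at chr7:19410844-19411093 on the plus strand, Myl1 at chr1:66945057-66945306 on the minus strand, Myh8 at chr11:67276874-67277123 on the plus strand and Top2a at chr11:99024190-99024439 on the minus strand. In the first 3, capitals mark CAGCTG, a form of the E-box that myogenic factors bind, and the motif of Mef2 factors. In Top2a they mark CCAAT, read as ATTGG on the other strand, and TTTGAA, read as TTCAAA, which are common upstream of mitotic genes. Both strands were searched.
Ckm: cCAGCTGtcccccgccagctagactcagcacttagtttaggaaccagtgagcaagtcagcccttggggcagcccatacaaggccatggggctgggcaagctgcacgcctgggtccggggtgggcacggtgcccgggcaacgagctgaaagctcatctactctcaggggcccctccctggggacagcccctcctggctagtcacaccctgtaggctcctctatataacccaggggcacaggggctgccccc
Myl1: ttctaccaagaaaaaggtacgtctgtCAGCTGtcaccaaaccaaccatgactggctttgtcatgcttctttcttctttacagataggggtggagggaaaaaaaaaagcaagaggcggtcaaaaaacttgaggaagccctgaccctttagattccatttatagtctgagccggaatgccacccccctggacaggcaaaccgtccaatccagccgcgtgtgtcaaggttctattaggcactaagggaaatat
Myh8: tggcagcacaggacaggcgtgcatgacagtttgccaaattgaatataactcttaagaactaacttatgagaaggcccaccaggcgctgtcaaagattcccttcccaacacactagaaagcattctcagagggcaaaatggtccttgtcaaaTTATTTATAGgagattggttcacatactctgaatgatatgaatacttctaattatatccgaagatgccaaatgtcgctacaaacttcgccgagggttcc
Top2a: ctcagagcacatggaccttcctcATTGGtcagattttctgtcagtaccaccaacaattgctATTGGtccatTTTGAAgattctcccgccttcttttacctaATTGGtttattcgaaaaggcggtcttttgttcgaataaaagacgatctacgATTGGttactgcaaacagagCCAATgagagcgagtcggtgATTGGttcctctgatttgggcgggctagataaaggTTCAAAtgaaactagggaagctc

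Ckm and Myl1 each hold 1 CAGCTG and Myh8 holds 1 Mef2 motif, while Top2a holds 6 CCAAT and 2 TTTGAA motifs. Among the first promoters of 27025 genes in the RefSeq table, 12.8% hold CAGCTG, 3.01% the Mef2 motif, 34.5% CCAAT and 16.3% TTTGAA in windows of the same length. Promoters were matched for 4296 of the 5452 tested genes (78.8%). That is below the 80% required for a share over a gene set, so none is given, and the matches are a description only.

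The machinery that couples excitation to contraction, and muscle energy metabolism, gave smaller differences of the same sign. Of 28 coupling genes 16 were called higher and none lower, with a median of 0.80, and of 19 energy genes 11 were called higher and 1 lower, with a median of 0.82. Casq2, which stores calcium in the sarcoplasmic reticulum, went from 21.3 and 15.6 to 2361 and 2289 CPM in Tw2, and from 131 and 145 to 2107 and 1872 in Pax7. Cacna1s, the voltage sensor channel, went from 6.74 and 4.60 to 658 and 590 in Tw2, and from 70.3 and 65.0 to 648 and 669 in Pax7. The gap was again the larger in growth medium, and the end differences of 0.23 for Casq2 and -0.08 for Cacna1s were not called. With size factors both were called lower in Tw2 at the end (-0.43 and -0.74), as were 18 of the 28 coupling genes. Of all 5452 tested genes 2631 were called lower there, with a median of -0.36. Pygm, muscle glycogen phosphorylase, differed by 2.63 ± 0.25, and Pgam2, a muscle glycolytic enzyme, by 2.60 ± 0.25.

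Ckm, the muscle creatine kinase, behaved otherwise. It was at 5.59 and 5.75 CPM in Tw2_GM, 1137 and 1141 in Tw2_48, 13.5 and 12 in Pax7_GM, and 419 and 591 in Pax7_48. Both cultures started low, and the Tw2 libraries ended above both Pax7 libraries, so that the lineage difference changed from -1.04 to 1.19. Its difference of responses was 2.23 ± 0.25 (adjusted p = 0.00089).

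Regulators of commitment and fusion were mixed, with 13 of 30 called higher, 3 lower and a median of 0.59. Myog, which encodes myogenin, was at 110 and 89.1 CPM in Tw2_GM, 3697 and 3859 in Tw2_48, 439 and 351 in Pax7_GM, and 2491 and 2247 in Pax7_48. Tw2 was the lower at the start (-1.98) and the higher at the end (0.67), and the difference was 2.65 ± 0.23 (adjusted p = 0.00033). Under size factors only the start difference of Myog was called. Gm7325, which encodes the fusion protein myomixer, went from 2.46 and 1.95 to 238 and 246 CPM in Tw2, and from 33.5 and 21 to 401 and 415 in Pax7. Tw2 stayed lower in both cultures and narrowed the gap, with a difference of 2.35 ± 0.29. Cav1, counted in this list and described with the falling genes, was 1 of the 3 called lower.

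With CPM as deposited, genes of cell division fell further in Tw2. Of 52 tested genes of mitosis and cytokinesis, all fell in both lineages, 25 had a called lower difference and none a higher one. The medians were -5.14 in Tw2, -4.12 in Pax7 and -0.81 for the difference. Of 50 DNA replication and repair genes, 17 were called lower and 1 higher, with a median of -0.62. With size factors 9 and 7 were called lower in the 2 lists, and with quantile normalization 7 and 7, against 4.09% and 8.42% of all tested genes, so the counts depend on the scaling. Without the deeper or the shallower Pax7_GM library, the median difference of the mitosis genes was -0.86 or -0.78, and that of all tested genes -0.15 or -0.25.

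Top2a, the topoisomerase of dividing cells, was at 771 and 649 CPM in Tw2_GM, 6.63 and 5.43 in Tw2_48, 65.8 and 146 in Pax7_GM, and 4.70 and 3.27 in Pax7_48. Tw2 cells began higher, both lineages ended near the same low level, and the 2 Pax7_GM libraries were themselves well apart. Its start difference was 2.84, its end difference 0.50 (not called) and its difference of responses -2.33 ± 0.47 (adjusted p = 0.013). Mki67, the proliferation antigen, was also a start-only gene, with 386 and 243 CPM in Tw2_GM and 19.1 and 61.5 in Pax7_GM. Its call (-2.39 ± 0.66, adjusted p = 0.041) was lost with size factors and with quantile normalization. Replication genes differed among themselves. Mcm4, a helicase subunit, was higher in Tw2 at the start (1.41) and not called at the end (-0.21), whereas its partner Mcm5 was even at the start (-0.14, not called) and lower in Tw2 at the end (-1.55). Under both scalings Mcm4 was also called lower at the end and Mcm5 at the start.

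Whether the cell division genes as a group differed at the start or the end could not be settled. With CPM as deposited, 29 of the 52 mitosis genes were higher in Tw2_GM and 1 lower (median 0.47). Of all tested genes 48.7% were higher and 26% lower there (median 0.34). At 48 there were 6 mitosis genes higher and 19 lower (median -0.19), against 43.3% and 22.1% of all tested genes (median 0.27). With size factors the start count became 14 higher and 24 lower (median -0.39), against 1393 and 2940 of all 5452 tested genes (median -0.50). The direction thus turns with the scaling, as it does over all tested genes.

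Ccnd1, the cyclin that answers growth factors, had its difference at the end. It was at 1237 and 1222 CPM in Tw2_GM, 13.7 and 15 in Tw2_48, 1488 and 1301 in Pax7_GM, and 79.95 and 72.4 in Pax7_48. The start difference was -0.18 (not called) and the end difference -2.33. Under both scalings Tw2 was called lower at the start too, by less than at the end. The difference was -2.15 ± 0.19 (adjusted p = 0.00033). Cdkn1c, an inhibitor of cyclin-dependent kinases, rose from 6.49 and 5.22 to 1431 and 1416 CPM in Tw2, and from 17.6 and 11.2 to 1141 and 1291 in Pax7. Here only the start differed, and the difference was 1.37 ± 0.29.

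A set of secreted and signalling genes fell further in Tw2, mostly from a common start. Cav1, which encodes the membrane scaffold caveolin-1, was at 32.2 and 31.3 CPM in Tw2_GM, 1.02 and 1.49 in Tw2_48, 28.7 and 37.6 in Pax7_GM, and 18.6 and 14.9 in Pax7_48. The 4 growth medium libraries overlapped and the 48 libraries were far apart, with a difference of -2.93 ± 0.26 (adjusted p = 0.00033). Timp1, an inhibitor of matrix proteases, fell from 281 and 347 to 12.8 and 15.8 CPM in Tw2, and from 498 and 381 to 123 and 127 in Pax7. Cxcl12, a chemokine, fell from 486 and 427 to 1.89 and 3.41 in Tw2, and from 442 and 425 to 18.6 and 17.2 in Pax7. End differences were -2.98 for Cav1, -3.05 for Timp1 and -2.40 for Cxcl12. All 3 kept the larger difference at the end under size factors and quantile normalization.

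Sema7a (-2.07 ± 0.20), Ntn4 (-1.52 ± 0.20), Csf1 (-1.42 ± 0.19), Bgn (-1.36 ± 0.20) and Dock8 (-1.88 ± 0.19) had start differences between 0.03 and 0.36 and end differences between -1.71 and -1.31, with Sema7a alone called at the start. With size factors all 5 were called lower at the start, by less than at the end. Grem1, a Bmp antagonist, was at 23.4 and 16.7 CPM in Tw2_GM, 0.0728 and 0.106 in Tw2_48, 29.5 and 42.8 in Pax7_GM, and 8.64 and 7.59 in Pax7_48. The Tw2_48 libraries held under 3 reads of it, so its difference of -2.25 ± 0.30 depends on the pseudocount.

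Of the immediate early and growth-responsive transcription factors and phosphatases, 7 of 23 were called lower and 1 higher, and the median was -0.43. Fosl1, a partner in AP-1, had a difference of -1.47 ± 0.25, and Dusp6, a phosphatase of the Erk kinase, one of -1.35 ± 0.21. Both were even at the start (0.08 and -0.16, not called) and lower in Tw2 at the end (-1.39 and -1.50), and with size factors each was called lower at the start as well. With size factors 4 of the list were called lower. Of all tested genes, 9.01% were called lower with CPM as deposited and 4.09% with size factors.

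Other falling genes began higher in Tw2. Spp1, which encodes osteopontin, measured 5927 and 5893 CPM in Tw2_GM against 2111 and 3967 in Pax7_GM, and ended at 173 and 132 in Tw2 and 437 and 369 in Pax7. Its difference was -2.43 ± 0.40, made of 1.03 at the start and -1.40 at the end, both called, and under size factors the end alone was called. Met, the receptor for hepatocyte growth factor, measured 320 and 310 CPM in Tw2_GM, 88.9 and 124 in Pax7_GM, and between 9.26 and 13.6 in all libraries at 48. Flrt2, a guidance receptor ligand, fell from 301 and 302 to 47.5 and 39.5 CPM in Tw2, and from 15.6 and 25.5 to 13.1 and 13.2 in Pax7, a smaller fall of 0.57 on the log2 scale. Among 28 axon guidance genes 10 were called lower and 2 higher.

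Opposite responses were rare, 23 genes, of which 15 rose in Tw2 and fell in Pax7. Ltbp2, a matrix protein of elastic fibres, was at 10.8 and 13.6 CPM in Tw2_GM, 42.1 and 40.9 in Tw2_48, 64.9 and 70.2 in Pax7_GM, and 15.3 and 16.1 in Pax7_48. The libraries of the lineages were apart in both cultures and changed places. Its Tw2 response was 1.69, its Pax7 response -2.04 and the difference 3.73 ± 0.20 (adjusted p = 6.9e-05). Spsb1, a substrate adaptor of a ubiquitin ligase, rose from 15.2 and 17.4 to 53.2 and 50.7 CPM in Tw2 and fell from 28 and 30.1 to 13.3 and 11.3 in Pax7. It crossed in the same way, from -0.80 to 2.00.

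Others with opposite responses ended closer together than they began. Inha, the inhibin alpha subunit, rose from 4.35 and 4.16 to 10.1 and 12.6 CPM in Tw2 and fell from 47.3 and 39.0 to 13.7 and 12.7 in Pax7. Car3, a carbonic anhydrase of muscle and fat, rose from 43.6 and 35.4 to 117 and 114 in Tw2 and fell from 238 and 293 to 130 and 110 in Pax7. At 48 the end differences of -0.21 for Inha and -0.04 for Car3 were not called. With size factors they were called at -0.82 and -0.70, and that of Inha also with quantile normalization (-0.57), so the meeting at 48 depends on the scaling. Tcf7, a transcription factor of the Wnt pathway, had a Tw2 response of 1.29 and a Pax7 response of -0.41, and Dzip1, a ciliary zinc finger protein, 1.30 and -0.52. Trmt10c, a subunit of the mitochondrial RNase P, went the other way, from 41.4 and 39.9 to 25.5 and 22.1 CPM in Tw2 and from 3.25 and 4.44 to 9.40 and 8.51 in Pax7. All 23 kept opposite signs with size factors and quantile normalization, but only 9 and 12 still had both responses and the difference called. With the GC and length trend removed, 21 kept opposite signs and 8 passed every call.

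Where only Pax7 cells changed, 44 genes rose and 16 fell. Meg3 and Rian are non-coding RNAs of one imprinted region on chromosome 12. Meg3 was at 3.29 and 2.83 CPM in Tw2_GM, 2.62 and 2.13 in Tw2_48, 18.3 and 32.2 in Pax7_GM, and 86.9 and 71.4 in Pax7_48. Rian was at 5.91 and 4.07, 6.12 and 4.58, 39.6 and 57.9, and 190 and 138 CPM in those groups. Both stayed low in Tw2, were already higher in Pax7 at the start and drew further apart, with differences of -1.92 ± 0.35 and -1.65 ± 0.36 (adjusted p = 0.0082 and 0.017). The wider gap held under both scalings. Of the 16 imprinted genes tested, 3 were called higher and 5 lower, so the list had no common direction.

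Zfp365 was level in Tw2, at 65.5 and 67.3 CPM in GM and 70.4 and 64.8 at 48, and fell from 71.8 and 87.4 to 21.4 and 20.6 in Pax7. The kinase gene Brsk1 was likewise level in Tw2, from 18.9 and 17.8 to 15.4 and 16.9 CPM, and fell from 23.8 and 23.3 to 5.64 and 5.89 in Pax7. At the end Tw2 was higher by 1.64 for Zfp365 and 1.34 for Brsk1. At the start Tw2 was lower by less, at -0.35 (called) for Brsk1 and -0.25 for Zfp365 (not called, but called under both scalings). Slc1a5, a glutamine transporter, was also higher in Tw2 at the end, with 130 and 111 CPM in Tw2_48 against 39.2 and 44.0 in Pax7_48 (difference 1.22 ± 0.20). Its start difference of 0.29 was not called.

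Among the 56 genes that changed less in Tw2, 37 fell and 19 rose. Isyna1, which makes inositol phosphate, rose from 12 and 12.9 to 25.4 and 25.4 CPM in Tw2 and from 58.0 and 45.3 to 302 and 331 in Pax7, widening the gap from -1.96 to -3.58. Cdh13, a cadherin without a cytoplasmic tail, rose from 50.2 and 46.7 to 110 and 112 in Tw2 and from 21.1 and 21.8 to 148 and 140 in Pax7. Kcnf1, a potassium channel subunit, fell from 157 and 156 to 57.6 and 61.0 in Tw2 and from 214 and 202 to 29 and 20.8 in Pax7. These genes show that the smaller response could come with a lower, a crossing or a higher Tw2 level at the end. Reln, the secreted protein reelin, began higher in Pax7 (62.6 and 69.3 CPM against 14 and 12) and its difference was 1.503 ± 0.19.

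A set of genes rose to a higher end level in Tw2 from a common or higher start. Col25a1, a membrane collagen of muscle that motor axons need, was at 10.4 and 8.68 CPM in Tw2_GM, 605 and 539 in Tw2_48, 10.3 and 15.2 in Pax7_GM, and 111 and 93.5 in Pax7_48. The start libraries overlapped, and at 48 Tw2 was 2.48 higher, giving a difference of 2.85 ± 0.28 (adjusted p = 0.00055). Adcy1, an adenylyl cyclase, rose from 19.3 and 23.8 to 206 and 192 in Tw2 and from 26.3 and 22.2 to 44.9 and 42.0 in Pax7. Pappa2, a protease of Igf-binding proteins, was under 1 CPM in all libraries in GM and at 71.9 and 66.0 in Tw2_48 against 14.7 and 17.7 in Pax7_48. Dio2, which activates thyroid hormone, was higher in Tw2 at the start (1.602) and more so at the end (3.39). Under both scalings Col25a1 and Adcy1 were called lower in Tw2 at the start too.

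Secreted regulators of muscle mass and Wnt components also parted. Fst, the antagonist follistatin, rose from 39.2 and 43.0 to 505 and 486 CPM in Tw2 and from 27.9 and 36.8 to 128 and 88.2 in Pax7, an end difference of 2.21. Mstn, myostatin, which follistatin binds, rose from 0.575 and 0.266 to 29 and 29.3 in Tw2 and from 5.55 and 5.59 to 42.6 and 37.3 in Pax7. Fst was thus higher and Mstn lower (-0.44) in Tw2 at 48, although both rose more in Tw2. The Mstn call was lost with quantile normalization. Of 28 Tgf-beta and Bmp genes 5 were called higher and 3 lower. Wnt9a (2.14 ± 0.18), Wnt4 (1.76 ± 0.24), Tcf7 (1.70 ± 0.21) and Porcn, which acylates Wnt proteins (1.598 ± 0.25), were among 5 of 18 Wnt genes called higher, with 2 lower. The Wnt4 call was lost with quantile normalization.

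Lipid synthesis genes often rose more in Tw2. Of 41 cholesterol and lipid genes 14 were called higher and 1 lower, the median difference was 0.66, and 38 of the 41 differences were positive. At the start 19 were lower in Tw2 and 8 higher (median -0.31), and at 48 there were 23 higher and 1 lower (median 0.49). With size factors 21 were called higher and none lower, but the end median was -0.17 with 6 genes higher and 14 lower, so the end direction turns with the scaling. With the GC and length trend removed, 15 were higher and 10 lower at the start (median 0.12), so the start direction turns too. Over all tested genes the end median with size factors was -0.36 (945 higher, 2631 lower). Their start median with the trend removed was 0.53 (3422 higher, 806 lower). The lipid median lay above the first and below the second. Scd1, the stearoyl desaturase, went from 2.88 and 1.33 to 515 and 444 CPM in Tw2 and from 10.3 and 14.9 to 448 and 474 in Pax7. Scd1 therefore caught up with Pax7, with an end difference of 0.05 that was not called, although with size factors it was called at -0.61. Ebp and Tm7sf2, enzymes late in sterol synthesis, differed by 1.34 ± 0.21 and 1.38 ± 0.22, the second lost with quantile normalization.

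Small heat shock proteins of muscle gave 4 of the 7 chaperone genes called higher (1 lower, of 24). Hspb7 went from 1.15 and 0.354 to 101 and 100 CPM in Tw2 and from 10.3 and 12.2 to 140 and 140 in Pax7, a difference of 2.36 ± 0.30. Hspb2 (1.91 ± 0.20), Hspb3 (1.78 ± 0.20, lost with quantile normalization) and Hspb8 (1.28 ± 0.22) also started lower in Tw2.

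Other functions had few called differences, which does not mean that their responses were equal. Of 56 oxidative phosphorylation genes 51 rose in Tw2 and 55 in Pax7, and only the muscle isoforms Cox6a2 (2.16 ± 0.26) and Cox8b (1.48 ± 0.34, lost with quantile normalization) had a called difference. Their median difference was -0.06, although 49 of the 56 were lower in Tw2 at the start and 51 at the end. With the GC and length trend removed, 33 were higher and 10 lower in Tw2 at the start (median 0.39) and 6 higher and 13 lower at the end (median -0.01), so the direction of this gap turns with that removal. All tested genes then had medians of 0.53 at the start (3422 higher, 806 lower) and 0.31 at the end (2552 higher, 715 lower). The list thus stayed below the medians of all tested genes. RNA processing genes, with 3 of 48 called, were higher in Tw2 in both cultures (43 called at the start, 40 at the end), and of 36 ribosome biogenesis genes, with 1 called, 34 fell in Tw2 and 25 in Pax7. However, only 4 of the 48 RNA processing genes and 0 of the 36 ribosome biogenesis genes had a positive difference, against 1952 of 5452 tested genes. The median differences of these lists were -0.54 and -0.50, against -0.22 for all tested genes. They were -0.80 and -0.70 without the shallower Pax7_GM library (all tested genes -0.25), and -0.28 and -0.34 without the deeper one (all tested genes -0.15). Their size thus depends on which Pax7_GM library is kept. With the GC and length trend removed, 18 oxidative phosphorylation genes and 12 ribosome biogenesis genes were called lower, against 21.3% of all tested genes. Median differences ran from -0.67 in the fifth of genes lowest in GC content to 0.08 in the highest, and the part of GC content in the results was not tested beyond that removal. Genes called higher had a median GC content of 53.3%, those called lower 47.2% and all tested genes 48.7%.

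**Figure D4:**
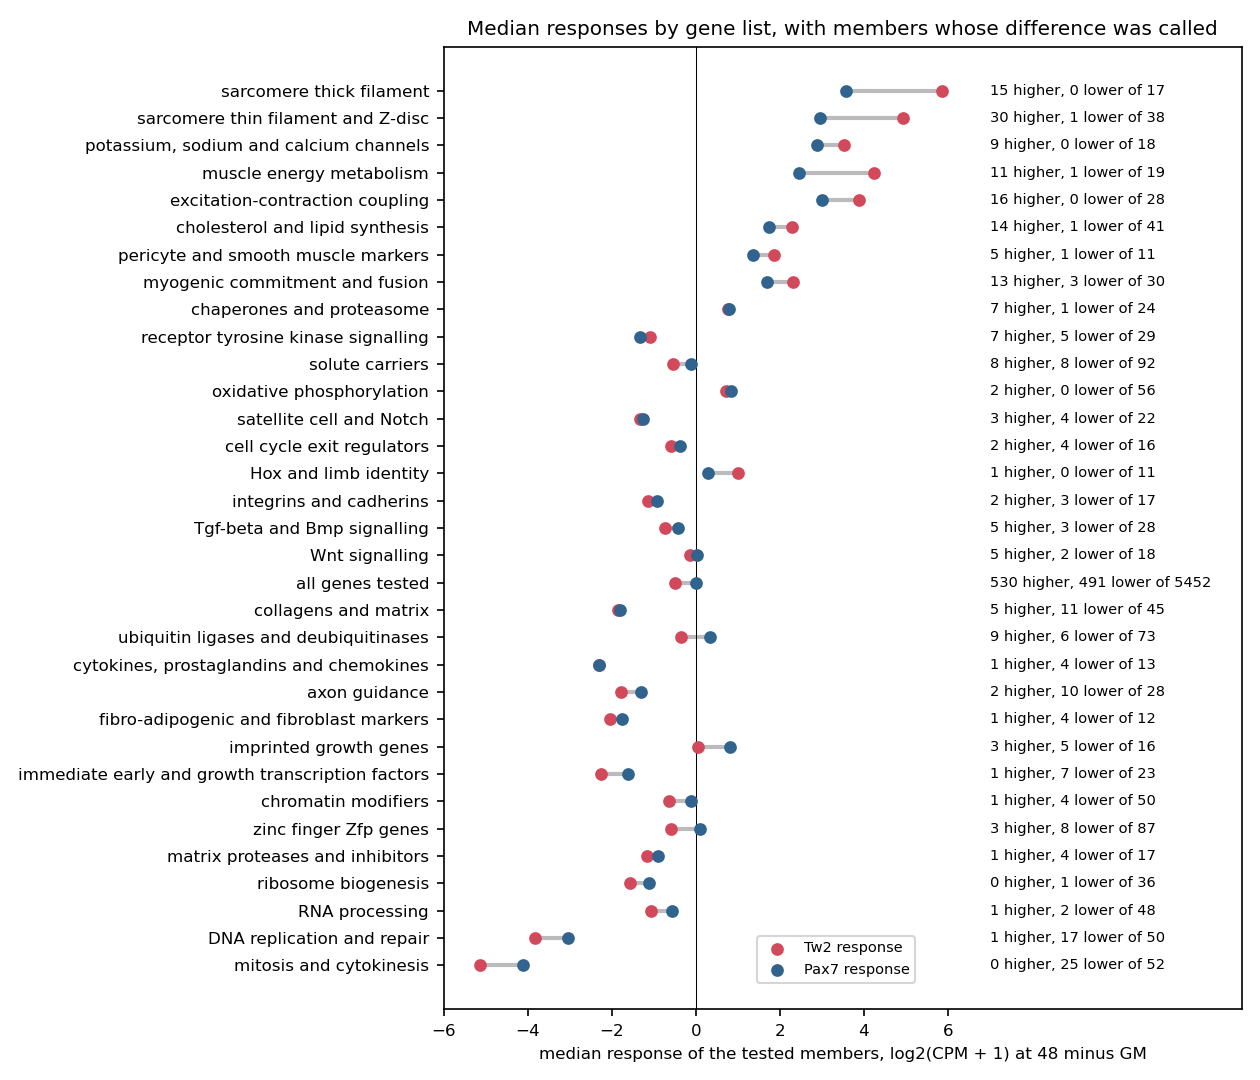
Median response in Tw2 (red) and Pax7 (blue) of the tested members of each gene list with 10 or more of them, as log2(CPM + 1) at 48 minus GM, ordered by the median difference. The text at the right counts members with a called higher or lower difference. Sarcomere lists lie at the top with Tw2 beyond Pax7, and mitosis and DNA replication lie at the bottom with Tw2 further below 0.

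**Figure D5:**
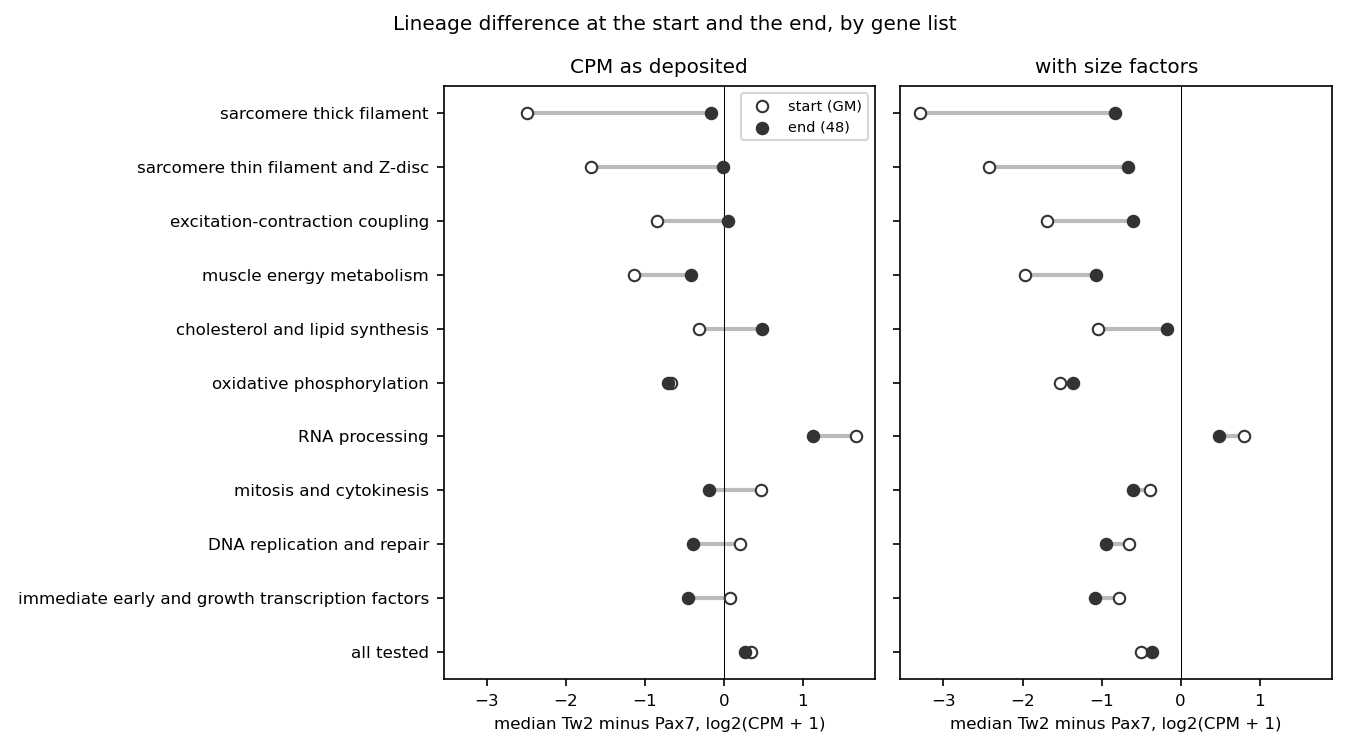
Median lineage difference (Tw2 minus Pax7, log2(CPM + 1)) of gene lists at the start (open) and the end (filled), with CPM as deposited (left) and with size factors (right). The thick filament median moves from -2.49 to -0.16 on the left and from -3.30 to -0.82 on the right. The start median changes side with the scaling for the mitosis, DNA replication and immediate early lists. The end median does so for the coupling and lipid lists, and both medians do for all tested genes.

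Markers of other cell types gave limited readings. Of 19 immune markers only Itgam was among the tested genes, and of 17 endothelial markers only Selp. Itgam had no read in Tw2_GM, where 3 reads would be 0.246 and 0.266 CPM, and 22.8 and 18.1 CPM in Tw2_48 against 15.9 and 11.9 in Pax7_48. Selp, the adhesion protein P-selectin, fell from 584 and 793 to 3.20 and 2.02 CPM in Tw2 and from 56.9 and 60.2 to 0.094 and 0.393 in Pax7. Itgam thus rose and Selp fell in both lineages, and the Itgam difference (1.17 ± 0.24) was lost under both scalings. The 12 tested fibroblast markers summed to 2306 and 2311 CPM in Tw2_GM, 677 and 756 in Tw2_48, 2009 and 1963 in Pax7_GM, and 951 and 964 in Pax7_48, with 1 called higher and 4 lower. Within that list Col1a2, a fibrillar collagen chain, was at 3.61 and 3.28 CPM in Tw2_GM, 6.84 and 24.1 in Tw2_48, 424 and 387 in Pax7_GM, and 270 and 246 in Pax7_48. The Tw2_48 libraries of Col1a2 were themselves far apart (difference 2.31 ± 0.62, adjusted p = 0.036). Of 11 pericyte and smooth muscle markers, which myotubes share in part, 5 were called higher and 1 lower, among them Tagln (1.57 ± 0.23) and Mylk (1.89 ± 0.33), both with the difference at the end with CPM as deposited, and crossing under size factors. The one called lower, Rgs5, had no read in Pax7_48, so its -1.50 ± 0.32 depends on the pseudocount, and the call was lost with size factors (adjusted p = 0.14) and quantile normalization (adjusted p = 0.070). The 4 tested adipocyte markers summed to 146 and 146 CPM in Tw2_GM and 427 and 463 in Pax7_GM, and to 866 and 760 in Tw2_48 and 848 and 862 in Pax7_48, and the bone marker Spp1 made up most of its list's sum. The part of other cell types in the differences was not tested.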

How the data were processed

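RNA was sequenced from 8 libraries, 2 in each of Tw2_GM, Tw2_48, Pax7_GM and Pax7_48. The authors deposited 1 table with 4 columns of mean CPM and, set against Tw2_GM, 3 columns of log2 fold changes, which were matched by log2 of (mean + 1) ratios to within 1.4e-11. A status column is the same for all genes and was not used. GRCm38 (mm10), DESeq2 1.6.3 and TopHat2 2.0.0 are listed in the submitters' processing notes. The counting tool and annotation are not given in the sources used here, nor is strand handling.

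Each mean was taken apart into whole reads of 2 libraries, with 1 solution in all 4 groups for 5452 of 5457 genes. On simulated means the solver gave the right reads wherever it found 1 solution. Replicate numbers are not recoverable. limma 3.58.1 (R 4.3.3) was run on log2(CPM + 1) with 1 mean per group, eBayes without trend (4 residual and 4.02 prior degrees of freedom) and Benjamini-Hochberg adjustment over the 5452 genes. The limma difference had the sign of the one computed from the deposited means in 99.4% of genes (median absolute gap 0.0098, largest 0.56). On simulated data, 38 of 100 genes with a 2-fold and 96 of 100 with a 4-fold difference were recovered, and 3 of 137 calls were unchanged genes. At these depths 3 reads, the limit a count of 0 allows, are 0.218 to 0.579 CPM, for counting error only. The pseudocount of 1 understates changes of genes near 1 CPM.

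Alternatives were pseudocounts of 0.25 and 5, a mean of at least 20 CPM, size factors, quantile normalization, removal of the GC and length trend (GENCODE M21, 5431 genes), eBayes with trend, library weights, limma voom on the recovered reads, each library left out in turn, and 2-fold means for the classes. Named genes are Pax7, then among called genes whose 16 library combinations share 1 sign, without predicted models, the 12 largest differences in each direction, the 6 of each response class, the 4 in each direction of each start and end class, and up to 4 per gene list, where Gm7325 was kept as a listed fusion gene despite its symbol. The genes, lists and tests were chosen with earlier results of these data known.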

Additional observations from a re-analysis of the deposited data

Results flagged for a closer look

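The test of the difference itself, an interaction of lineage and culture in limma, was past an adjusted p of 0.05 for 530 genes higher in Tw2 and 491 lower, and the genes named above are drawn from these. Of the genes named, 7 are set apart because the lineages also moved in opposite directions with both responses called. Their differences of responses were 3.73 for Ltbp2, 2.85 for Inha, 2.79 for Spsb1, 2.67 for Car3, 1.82 for Dzip1, 1.70 for Tcf7 and -1.80 for Trmt10c. All groups hold 2 libraries, too few for a search for outlying samples.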

How the results depend on the processing

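No paired analysis was possible because the libraries taken from the group means carry no replicate numbers. Of 153 named called genes, 145 kept direction and call under size factors and 133 under quantile normalization. Removal of the GC and length trend kept 151. None of the 153 changed direction when any 1 library was left out. Whether their calls depend on a single library cannot be read from those fits, which leave no spread in the group that lost it. This holds most for Pax7_GM, where the 2 libraries differed most. Under limma voom, 1 of the 153 changed direction, Rgs5, at 0.73 (adjusted p = 0.45). The cause of the changes below was not tested, except that leaving out a library leaves fewer samples and that the filter at 20 CPM leaves 4351 genes.

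Genes called lower were 223 with size factors and 1155 with the trend removed. Opposite genes were 13 with the 20 CPM filter, 37 with the trend removed and 5 by 2-fold means. Tw2-only genes were 206 with a pseudocount of 5, 73 with the filter, 171 with the trend removed, 255 with library weights, 236 with voom and 217 by 2-fold means. Pax7-only genes were 38 with the filter, 133 with quantile normalization, 133 with the trend removed and 130 with voom. The class larger in Tw2 was 1261 with the trend removed, and that smaller in Tw2 was 157 there and 151 with quantile normalization. Start-only genes were 719 with the trend removed and 201 with weights, and end-only genes 97 with size factors. Crossing genes were 94 with size factors, 105 with quantile normalization, 286 with the trend removed and 17 by 2-fold means. Wider genes were 120 with the trend removed, 31 with weights and 19 by 2-fold means. Narrower genes were 384 with a pseudocount of 5, 341 with size factors, 413 with quantile normalization, 400 with the trend removed, 449 with weights, 488 with voom and 90 by 2-fold means. Start differences were 1393 higher and 2940 lower with size factors, with 2208 lower under quantile normalization and 806 with the trend removed. End differences were 945 higher and 2631 lower with size factors, and 715 lower with the trend removed.

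Leaving out 1 library at a time gave 310 to 962 genes higher and 126 to 2191 lower, the largest of both without the shallower Pax7_GM library, which is the library that most changes the counts. Without the deeper Pax7_GM library they were 725 and 1003. The ranges were 11 to 418 for opposite, 31 to 492 for Tw2 only, 10 to 357 for Pax7 only, 378 to 1529 for larger in Tw2, 15 to 352 for smaller in Tw2, 176 to 544 for start only, 70 to 419 for end only, 77 to 275 for crossing, 13 to 141 for wider and 50 to 1905 for narrower. Tw2 responses ranged from 1795 to 2037 up and 2399 to 2965 down, Pax7 responses from 1875 to 2625 up and 2021 to 2640 down, start differences from 2352 to 2729 higher and 1043 to 1682 lower, and end differences from 1462 to 2705 higher and 671 to 1513 lower.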
